A study of Mus musculus with 72 samples.

Results

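The liver's response to a methionine- and choline-deficient (MCD) diet was examined at circadian time 16 (CT16). The comparison took the 3 MCD and the 3 control libraries whose labels give liver and CT16, which are 6 of the 36 liver libraries and 6 of all 72 libraries of the series. All mice were C57BL/6, 8 to 12 weeks old when purchased and housed singly. They ate the MCD diet or its isocaloric control freely through 10 days of 12 h light and 12 h dark and an 11th day of constant darkness, the day on which mice were killed every 4 h from CT0 to CT20. Each group held 2 males, numbered 1 and 2 here, and 1 female, numbered 3, by the labels, whereas the protocol text names males only. Each library came from its own mouse and from a piece of the centre of the left lobe, so values are of whole tissue, in which fewer cells of a type and less RNA per cell cannot be told apart.

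Methionine is an essential amino acid and the source of S-adenosylmethionine, the cell's main methyl donor, and choline is the head group of phosphatidylcholine, which the liver needs to export fat in lipoproteins. A diet that lacks both is widely used to produce fatty liver in mice. Shortage of an amino acid is sensed by the kinase GCN2, which raises translation of the transcription factor ATF4, and fat and sterol synthesis in the liver is driven at night by feeding through the SREBP and ChREBP factors. CT16 lies in the subjective night, when mice are active and eat.

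The 6 libraries held 56383249 to 66457132 counts over the genes of the table. Of 22823 genes, 20249 passed the filter on low counts and were tested. Values are in CPM, a gene's count scaled to one library total for all libraries, after TMM scaling, whose factors were 0.841 to 0.893 in the control and 0.999 to 1.12 in the MCD libraries. Hepatocyte markers made up 97600 to 120800 CPM in the control and 105400 to 121300 CPM in the MCD libraries, and 1 of the 7, Serpina1a, fell (log2 -0.63 ± 0.20, adjusted p = 0.0397, but 0.055 to 0.142 when any 1 of the 6 libraries was left out). No pancreas or adipose marker was analysed here. Control library 1 stood apart in mt-Nd6, a mitochondrial gene read from the light strand, with 726 CPM against 83.3 to 133 CPM in the other 5. Of the 36 liver libraries, 15 were of that high kind and 21 of the low kind. Its part in the results was not tested beyond the values given without that library and with a term for the kind of library.

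At CT16, 2532 of 20249 genes (12.5%) differed between the diets at an adjusted p under 0.05 in edgeR's quasi-likelihood test with Benjamini-Hochberg adjustment, which gave all adjusted p-values below unless another tool is named. Of these, 1320 (6.52%) were higher and 1212 (5.99%) were lower on the MCD diet. A change of at least 1 on the log2 scale was seen for 479 of the genes that rose (2.37%) and 276 of those that fell (1.36%). The 3 MCD values lay wholly above the 3 control values for 4068 genes (20.1%) and wholly below for 3067 (15.1%), whether or not the test was passed. The number of calls was lower whichever library was left out. It was 1254, 1662 and 1891 without control library 1, 2 and 3, and 2041, 1559 and 1140 without MCD library 1, 2 and 3. Each such fit also has fewer libraries. The part of a given library and the loss of power therefore cannot be told apart, here and for the lists below. The split between higher and lower rested on the scaling. With library totals in place of TMM the median gene lay at a log2 change of 0.31, against 0.03, and 3728 genes were called higher and 434 lower, so that 89.6% of calls were higher against 52.1%.

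Genes of the amino acid stress response, most of them known targets of ATF4, were mostly higher on the MCD diet. Of 30 tested, 18 rose and 1 fell, where 6.52% of all genes rose and 5.99% fell, the shares beside which the counts of each list below stand. The median log2 change over the list was 1.27, against 0.03 over all genes tested. The MCD values lay wholly above the control values for 22 of the 30, against 20.1% of all genes. Without control library 1 the number that rose was 11, without control library 3 it was 12, and without MCD library 3 it was 10. Promoters of 26 members were found in the RefSeq table for GRCm38.p6, each running from 250 bases before to 50 bases after a gene's start. The composite C/EBP-ATF element was searched as TGATGNAA on both strands. It occurred for 9 of the 26 genes (34.6%), against 1304 of all 32851 promoter entries (3.97%). Here and for the elements below, a list gene counted if any of its entries matched, whereas all promoters were counted by entry. The shares therefore differ in unit. The 7 of those 9 genes that rose were Asns, Atf3, Fgf21, Nupr1, Pck2, Slc7a11 and Trib3, and the others were Chac1 and Vldlr. Slc7a11 did not pass when any control library or MCD library 3 was left out (adjusted p of 0.0548 to 0.154), or in limma (0.387). A match describes these letters only and is not evidence of binding. These shares, and those of the elements below, rest on the sequences and on which genes were listed, and are no test of the changes at CT16. Windows of 80 bases upstream of the start are shown for 5 of the genes that rose, with the element in capitals, because this element is known as a landing site of ATF4 paired with C/EBP proteins; each is written 5′ to 3′ on the gene's own strand and its coordinates hold for GRCm38.p6.
Asns, chr6:7693210-7693289, minus strand: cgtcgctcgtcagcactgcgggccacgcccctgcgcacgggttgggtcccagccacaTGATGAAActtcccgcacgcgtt
Atf3, chr1:191183400-191183479, minus strand: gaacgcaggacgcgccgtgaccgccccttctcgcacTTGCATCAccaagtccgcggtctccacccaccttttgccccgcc
Fgf21, chr7:45615586-45615665, minus strand: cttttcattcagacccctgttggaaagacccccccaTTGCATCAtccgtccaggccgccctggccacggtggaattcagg
Nupr1, chr7:126625537-126625616, minus strand: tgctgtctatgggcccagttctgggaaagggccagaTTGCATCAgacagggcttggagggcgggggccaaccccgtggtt
Pck2, chr14:55540127-55540206, plus strand: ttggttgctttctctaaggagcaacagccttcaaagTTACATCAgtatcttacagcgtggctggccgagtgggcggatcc

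Among the secreted products, Fgf21, a hormone the liver releases under amino acid restriction and fasting, stood at 4.68, 2.38 and 1.42 CPM in control libraries 1, 2 and 3 and at 35.7, 68.7 and 134 CPM in MCD libraries 1, 2 and 3. Its fitted change was 30.2-fold (log2 4.92 ± 1.00, SE; adjusted p = 0.00234), with no overlap. With the 6 CT16 libraries fitted alone and the replicate number as a block Fgf21 did not pass (adjusted p = 0.0682), nor did Ddit3 (0.0649), Asns (0.0954), Psat1 (0.0945), Cyp4a31 (0.0687) or Cyp4a14 (0.148), and of the stress list 15 rose. The 3 MCD mice themselves ranged widely, the female highest. Gdf15, a stress hormone that acts on the brainstem to curb feeding, went from 2.97, 1.06 and 3.07 CPM to 9, 19 and 24.4 CPM (log2 2.87 ± 0.61, adjusted p = 0.00311).

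Of the transcription factors and regulators, Atf3 stood at 1.67, 1.68 and 2.68 CPM in the controls and 11.7, 18.6 and 49.5 CPM on the MCD diet (log2 3.69 ± 0.75, adjusted p = 0.00234). Trib3, a pseudokinase that feeds back on ATF4 signalling, stood at 2.31, 3.06 and 1.25 CPM and 19.9, 27.5 and 38 CPM (log2 3.83 ± 0.57, adjusted p = 0.000152). In both, as in Fgf21, the MCD female had the highest value of the 6 and the groups did not overlap. Ddit3, which encodes CHOP, rose by a log2 of 1.74 ± 0.35 (adjusted p = 0.0018), and Nupr1, a small stress-induced chromatin protein, by 3.04 ± 0.70 (0.00565). Atf5, another bZIP factor of the same response, rose from 316, 486 and 467 CPM to 825, 971 and 1104 CPM (log2 1.20 ± 0.25, adjusted p = 0.00232). Genes on the other strand overlap exons of Atf5 and Ddit3. Atf4 itself, which is known to be regulated mainly through translation, did not pass the test, at 138, 124 and 84.4 CPM and 115, 152 and 127 CPM (log2 0.20 ± 0.20, adjusted p = 0.539), and its groups overlapped.

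Among the enzymes of the list, Asns, Psat1, Psph, Aldh1l2 and Pck2 rose and Shmt2 fell. Asns, asparagine synthetase, stood at 1.20, 2.30 and 0.371 CPM in the controls and 3.22, 7.09 and 7.55 CPM on the MCD diet, and its change of 2.81 ± 0.79 on the log2 scale (adjusted p = 0.0195) did not pass without MCD library 3 (0.212), control library 1 (0.0916) or control library 3 (0.0757). Psat1 of serine synthesis was similar, at 1.30, 4.42 and 0.859 CPM and 5.53, 9.24 and 13.2 CPM, with an adjusted p of 0.0278 that became 0.212 without MCD library 3, 0.13 without control library 1 and 0.112 without control library 3. Psph, the last enzyme of serine synthesis, did not pass without control library 1 or 3 or MCD library 2 or 3 (0.0712 to 0.108). Aldh1l2 and Pck2 passed whichever library was left out. Aldh1l2, a mitochondrial formyltetrahydrofolate dehydrogenase, went from 0.952, 0.620 and 0.421 CPM to 3.42, 3.46 and 3.35 CPM (log2 2.39 ± 0.49, adjusted p = 0.00211), and Pck2, the mitochondrial form of PEP carboxykinase, from 4.78, 4.46 and 6.94 CPM to 13, 17.7 and 15.8 CPM (log2 1.53 ± 0.32, adjusted p = 0.00253). Reads over both may include antisense genes that overlap their exons, since the counting strand is not given in the sources used here. The amino acid transporter chain Slc3a2 rose by 0.86 ± 0.22 (adjusted p = 0.0116, but 0.123 without MCD library 3) and Slc7a5 by 0.86 ± 0.21 (0.00798, but 0.0564 without MCD library 2). Shmt2, a mitochondrial serine hydroxymethyltransferase, was the member that fell, from 266, 258 and 239 CPM to 215, 188 and 167 CPM (log2 -0.42 ± 0.14, adjusted p = 0.0479), and it did not pass when any library other than MCD library 1 was left out (0.0933 to 0.156) or with library totals, where its log2 change was -0.15 (adjusted p = 0.261). Ddit4, an inhibitor of mTORC1, stood at 13.8, 10.9 and 21.5 CPM and 32.4, 49 and 98.2 CPM with an adjusted p of 0.0494, which was 0.0643 with the replicate number as a block and above 0.05 when any library other than MCD library 1 was left out.

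**Figure D1:**
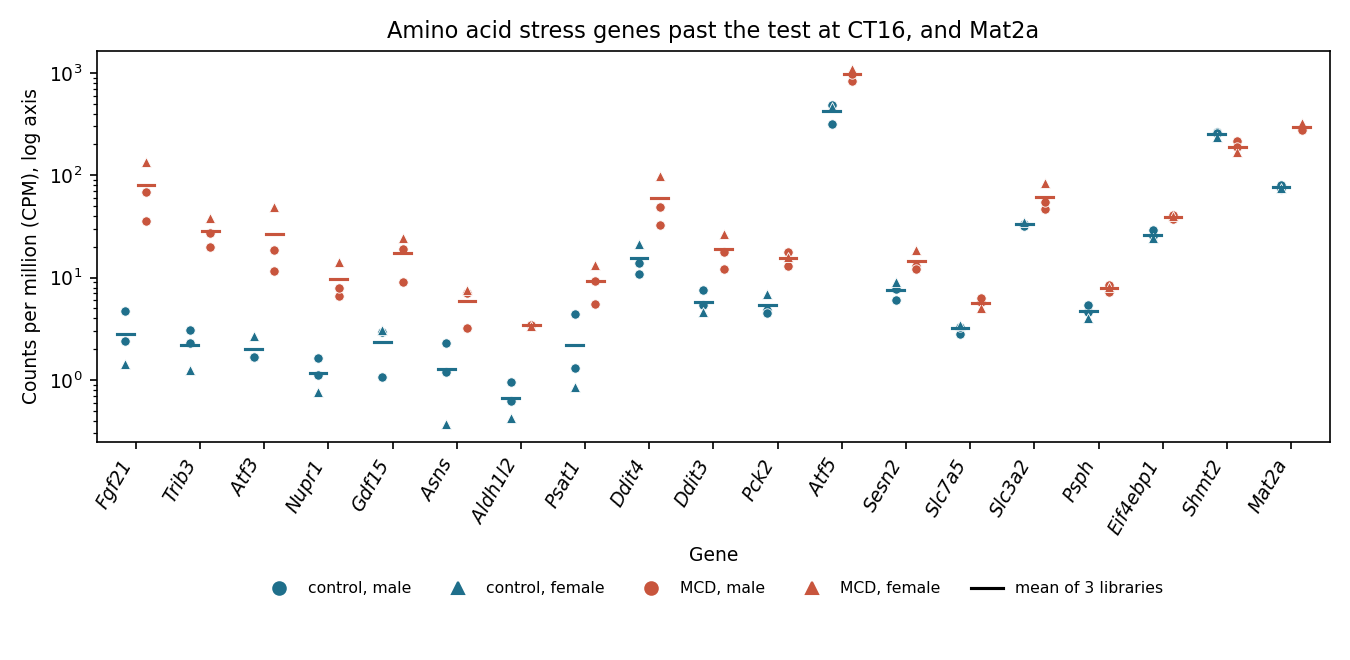
Normalised counts (CPM, log axis) of the amino acid stress genes that passed the test at CT16 and of Mat2a, in each of the 3 control and 3 MCD libraries; circles are males, triangles females and bars the mean of 3, and Slc7a11 is not drawn because libraries were at 0. Fgf21, Trib3 and Atf3 show the widest gaps between the diets, and Mat2a shows a gap with little spread within either group.

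Mat2a, the extrahepatic form of methionine adenosyltransferase, which is known to be induced when S-adenosylmethionine is low, stood at 73.4, 79.7 and 75.4 CPM in the controls and 286, 275 and 326 CPM on the MCD diet. The change was 3.88-fold (log2 1.96 ± 0.18, adjusted p = 4.13e-07), and the 3 values of each group lay close together. An antisense gene overlaps its exons. Of 27 genes of the methionine cycle, folate cycle and transsulfuration, Mat2a was the 1 that rose and Gamt, which consumes S-adenosylmethionine to make creatine, the 1 that fell, shares no higher than the 6.52% and 5.99% of all genes. Gamt went from 177, 195 and 219.8 CPM to 123, 103 and 85.6 CPM (log2 -0.91 ± 0.28, adjusted p = 0.0315), with an adjusted p of 0.0637 to 0.158 when any library other than MCD library 1 was left out. The median over the list was 0.01 on the log2 scale. With the replicate number as a block, 3 rose and 3 fell. Cbs and Cth, the enzymes that turn homocysteine into cysteine, lay higher in every MCD library without passing. Cbs stood at 218, 244 and 242 CPM and 291, 301 and 312 CPM (log2 0.36 ± 0.12, adjusted p = 0.0526), and Cth at 117, 159 and 152 CPM and 220.3, 241 and 259 CPM (log2 0.75 ± 0.26, adjusted p = 0.0553).

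Of 18 genes of choline oxidation and phospholipid synthesis, 7 fell, 0 rose and 11 did not pass (5.99% of all genes fell and 6.52% rose), with a median of -0.37. Without MCD library 3 the number was 4. Pipox, which oxidises sarcosine at the end of the choline-to-glycine route, fell from 257, 288 and 268 CPM to 117, 103 and 69.9 CPM (log2 -1.48 ± 0.21, adjusted p = 8.65e-05). Aldh7a1, a betaine aldehyde dehydrogenase, fell from 394, 389.9 and 315 CPM to 225, 210.5 and 162 CPM (log2 -0.88 ± 0.11, adjusted p = 2.25e-05). Lpcat3, which places polyunsaturated chains into phosphatidylcholine, fell from 139.9, 171 and 133 CPM to 86.4, 82.6 and 71.3 CPM (log2 -0.88 ± 0.16, adjusted p = 0.000827). In these genes each MCD value lay below each control value. Genes on the other strand overlap the exons of Aldh7a1 and Lpcat3. Pemt, which makes phosphatidylcholine from phosphatidylethanolamine with S-adenosylmethionine, did not pass, at 226, 242 and 276 CPM and 257, 242 and 246 CPM, and its groups overlapped.

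Fatty acid and triglyceride synthesis showed the largest median change of the lists described here. Of 22 genes tested, 15 fell and 0 rose, against 5.99% and 6.52% of all genes. The median log2 change was -1.91, and in 19 the MCD values lay wholly below the control values, against 15.1% of all genes. Leaving out 1 library at a time left 11 to 13 that fell. The desaturases were among the largest falls. Scd1, stearoyl-CoA desaturase, stood at 24046, 17452 and 40200.0 CPM in the controls and 619, 807 and 889 CPM on the MCD diet, 34.4-fold lower (log2 -5.10 ± 0.69, adjusted p = 5.63e-05). Its paralog Scd3 stood at 87.1, 43.3 and 111 CPM in the controls and had no count in any MCD library, at least 1740-fold lower when each MCD library is set at 3 counts. Reads of these near-identical paralogs may have been split between them by the counting, so the value of each is uncertain. Scd3 passed at an adjusted p of 0.0474, but not when any 1 of the 6 libraries was left out (0.0727 to 0.148) or with a term for the kind of library (0.0576).

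The enzymes that supply and build the chain fell as well. Acly, which makes cytosolic acetyl-CoA from citrate, went from 2458, 1791 and 1691 CPM to 223, 207 and 274 CPM, 8.5-fold lower (log2 -3.09 ± 0.62, adjusted p = 0.00212). Acaca, acetyl-CoA carboxylase, went from 706, 541 and 1115 CPM to 244, 182 and 288 CPM (log2 -1.70 ± 0.31, adjusted p = 0.000777). The groups did not overlap in either gene. Fasn, fatty acid synthase, stood at 7663, 4119 and 7487 CPM and 978, 940.2 and 1782 CPM (log2 -2.43 ± 0.80, adjusted p = 0.0459), and whichever of the 6 libraries was left out it did not pass (0.062 to 0.146). Its 3 MCD values still lay below the lowest control value. Elovl6, which lengthens palmitate, fell from 1704, 1309 and 2179.5 CPM to 156, 121 and 221 CPM, 10.6-fold (log2 -3.40 ± 0.67, adjusted p = 0.00178). Elovl5, which lengthens polyunsaturated chains, fell too (log2 -1.78 ± 0.24, adjusted p = 5.09e-05). Gpam, the first enzyme of glycerolipid synthesis, fell from 1283, 1013 and 845 CPM to 253, 249 and 272 CPM (log2 -2.03 ± 0.36, adjusted p = 0.000729). Among regulators, Srebf1, which encodes SREBP, fell from 1168, 569.5 and 1075 CPM to 289, 285 and 307 CPM (log2 -1.66 ± 0.42, adjusted p = 0.0104, but 0.0715 without control library 1 and 0.0587 without MCD library 3). A further lipid gene that fell was Pnpla3, a lipid droplet protein and SREBP target, at 93.3, 62 and 108 CPM and 0.446, 0.624 and 1.48 CPM, 130-fold lower (log2 -7.03 ± 0.92, adjusted p = 5.09e-05). Genes on the other strand overlap exons of Srebf1 and Elovl6, and a gene on the same strand overlaps Pnpla3.

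**Figure D2:**
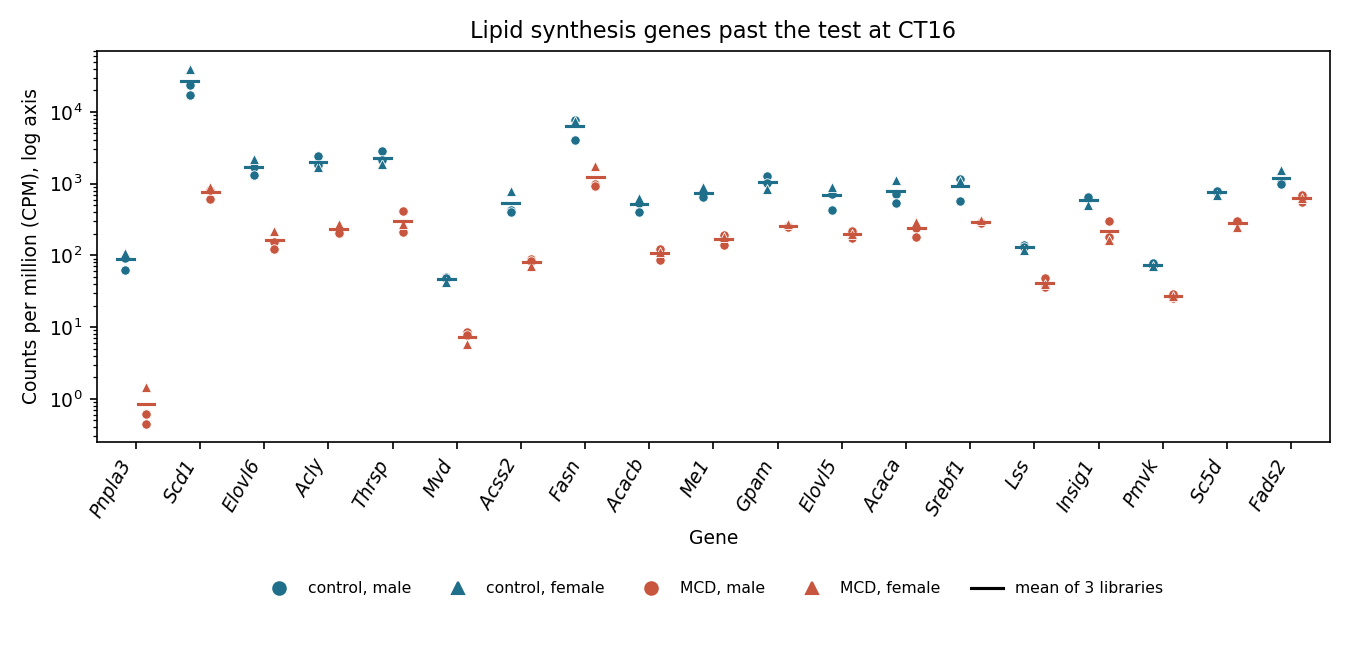
Normalised counts (CPM, log axis) of the fatty acid, triglyceride and cholesterol genes that passed the test at CT16, in each of the 3 control and 3 MCD libraries; circles are males, triangles females and bars the mean of 3, and Pnpla5 is not drawn because a library was at 0. The MCD points lie below the control points in each gene drawn, with the widest gaps for Pnpla3 and Scd1.

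Of 22 genes of cholesterol synthesis and uptake, 5 fell and 0 rose (5.99% and 6.52% of all genes), the median was -0.91, and in 18 the MCD values lay wholly below the control values (15.1% of all genes). The number of calls changed when single libraries were left out: it was 1 without control library 1 or MCD library 3, 2 without control library 2 or MCD library 1, and 3 without MCD library 2. When the 6 CT16 libraries were fitted alone with the replicate number as a block, 18 fell. Insig1, which holds SREBP in the endoplasmic reticulum when sterols are plentiful and is itself an SREBP target, went from 629, 647 and 501 CPM to 180.1, 305 and 161 CPM (log2 -1.45 ± 0.47, adjusted p = 0.0442). Mvd, mevalonate diphosphate decarboxylase, went from 50.4, 48.7 and 42.1 CPM to 8.63, 7.73 and 5.79 CPM, 6.35-fold lower (log2 -2.67 ± 0.79, adjusted p = 0.027). Sc5d, a late enzyme of the pathway, went from 763, 799 and 699 CPM to 296, 301 and 252 CPM (log2 -1.41 ± 0.28, adjusted p = 0.00156), and of the 5 it was the 1 that passed whichever library was left out. Lss, lanosterol synthase, changed by -1.66 ± 0.44 (adjusted p = 0.0145) and Pmvk, phosphomevalonate kinase, by -1.42 ± 0.43 (adjusted p = 0.0313) on the log2 scale. The NF-Y element was searched as CCAATCA on both strands. It occurred for 2 of 18 genes of the fatty acid list (11.1%), against 2568 of all 32851 promoter entries (7.82%). Of the 14 genes of the cholesterol list with a promoter found, 9 held it (64.3%). The windows of the 3 genes that hold it and fell are shown, with the element in capitals, from the same RefSeq table for GRCm38.p6.
Mvd, chr8:122443423-122443502, minus strand: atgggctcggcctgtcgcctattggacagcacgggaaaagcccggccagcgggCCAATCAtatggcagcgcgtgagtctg
Lss, chr10:76531504-76531583, plus strand: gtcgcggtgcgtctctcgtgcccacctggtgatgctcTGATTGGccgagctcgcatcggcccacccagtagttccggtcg
Sc5d, chr9:42264301-42264380, minus strand: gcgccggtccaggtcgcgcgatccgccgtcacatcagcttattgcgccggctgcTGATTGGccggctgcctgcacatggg

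The genes of fatty acid oxidation and other PPARα targets had no common direction. Of 22 tested, 3 rose and 2 fell (6.52% and 5.99% of all genes), and the median was 0.07. Without control library 1 or 2 or MCD library 2 or 3 the number that fell was 1. The omega-hydroxylase Cyp4a14 stood at 12.1, 124 and 378 CPM in the controls and 1436, 1347 and 1652 CPM on the MCD diet (log2 3.71 ± 0.96, adjusted p = 0.0125, but 0.0646 without control library 1). The 3 control mice differed far more from each other than the 3 MCD mice did. Cyp4a31 showed the same, at 7.19, 23.1 and 44.7 CPM and 109, 126 and 136 CPM (log2 2.51 ± 0.53, adjusted p = 0.00289), and reads of these Cyp4a paralogs may be shared. Of 15 lipid droplet and lipolysis genes 1 rose and 2 fell, where 6.52% of all genes rose and 5.99% fell, and with the replicate number as a block 3 rose. The 1 that rose, Plin5, did not pass when any library other than control library 3 was left out (0.0646 to 0.201). The 2 that fell, Cideb and Mgll, did not pass without MCD library 3 (0.0842 and 0.171) or with library totals (0.0574 and 0.102), and Mgll did not pass without control library 1 or 2 or MCD library 2 either (0.0935 to 0.171). The droplet coat gene Plin2 did not pass, at 343, 288 and 355 CPM and 294, 268 and 334 CPM (log2 -0.14 ± 0.31, adjusted p = 0.821), with groups that overlapped.

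Of 17 bile acid genes, 3 fell, 0 rose and 14 did not pass, and with the 6 CT16 libraries alone and the replicate number as a block 7 fell. Cyp2c70, which makes the muricholic acids of mice, fell from 781, 459.8 and 485 CPM to 198, 216 and 176 CPM (log2 -1.55 ± 0.31, adjusted p = 0.00178). Slc10a1, the bile acid uptake carrier, fell from 802, 761 and 1022 CPM to 399, 286 and 234 CPM (log2 -1.49 ± 0.39, adjusted p = 0.0122, but 0.08 without MCD library 3), and Slc27a5, a bile acid ligase, was the third (log2 -1.01 ± 0.27, adjusted p = 0.0151, but 0.112 without MCD library 3). Of 17 genes of glucose production and fasting, 4 fell, and Fgf21 was the 1 that rose. Gys2, liver glycogen synthase, fell from 285, 234 and 161 CPM to 132, 103 and 93.6 CPM (log2 -1.03 ± 0.22, adjusted p = 0.00284), and Pygl, glycogen phosphorylase, from 995, 731 and 892 CPM to 506, 401 and 354 CPM (log2 -1.06 ± 0.20, adjusted p = 0.00101). Pck1, cytosolic PEP carboxykinase, was high in each MCD library, at 864, 780.3 and 781 CPM, and ranged over 36.9, 440.0 and 114 CPM in the controls, and its change did not pass (log2 2.03 ± 0.81, adjusted p = 0.101).

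None of 19 core clock genes passed at CT16 in edgeR, where 2 lay higher and 3 lower at an unadjusted p under 0.05. DESeq2 called 1 higher and 2 lower, limma 1 higher, and edgeR with the replicate number as a block 1 lower. With the 6 CT16 libraries fitted alone with that block, 2 rose and 3 fell. Per3 lay lower in every MCD library, at 41, 46.7 and 40.0 CPM in the controls and 21.7, 23.2 and 15.7 CPM on the MCD diet (log2 -1.06 ± 0.42, adjusted p = 0.0998). Arntl, which encodes BMAL1, lay higher, at 21.2, 24.8 and 23.9 CPM and 34.4, 31 and 34.3 CPM (log2 0.51 ± 0.40, adjusted p = 0.427). Per2 overlapped between the diets, at 179, 89.9 and 157 CPM and 87.7, 90.6 and 114 CPM.

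Of 16 genes of the endoplasmic reticulum (ER) unfolded protein response the median was -0.69 and 2 fell, Hsp90b1 and Edem1, though neither passed with library totals (0.121 and 0.175). Without control library 3 the number was 5, without MCD library 1 or 2 it was 1, and with the 6 CT16 libraries alone and the replicate number as a block it was 6. Control library 1 was the highest of the 6 in many of them. Hspa5, the ER chaperone BiP, stood at 1446, 780.5 and 425 CPM in the controls and 649, 537 and 423 CPM on the MCD diet (log2 -0.69 ± 0.37, adjusted p = 0.229), and its groups overlapped. Hsp90b1, another ER chaperone, stood at 1240.3, 651 and 589 CPM and 540.1, 472 and 382 CPM. Its change of -0.83 ± 0.27 (adjusted p = 0.0428) was -0.43 with an adjusted p of 0.374 without control library 1, and no member passed without that library or without MCD library 3. The ER stress element was searched as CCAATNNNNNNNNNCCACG on both strands. It occurred for 6 of 14 genes of this list (42.9%) and for 0 of 26 of the amino acid stress list, against 39 of all 32851 promoter entries (0.119%). The windows of both chaperones, for Hsp90b1 around the first of 2 matches, are shown for contrast with the C/EBP-ATF windows above, with the element in capitals. Letters that match NF-Y, CCAATCA, can overlap the first part of this element.
Hspa5, chr2:34771994-34772073, plus strand: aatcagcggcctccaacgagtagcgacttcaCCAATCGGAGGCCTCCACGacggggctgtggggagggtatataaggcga
Hsp90b1, chr10:86705608-86705687, minus strand: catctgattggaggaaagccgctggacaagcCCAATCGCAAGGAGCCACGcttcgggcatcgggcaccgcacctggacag

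Of 16 heat shock genes 3 fell, 0 rose and 13 did not pass, with a median of -0.25, which was 0.03 with library totals. The number that fell was 1 without control library 1 or 3 or MCD library 2 or 3. Hspd1, the mitochondrial chaperonin, fell from 461, 369 and 404 CPM to 324, 258 and 253 CPM (log2 -0.57 ± 0.12, adjusted p = 0.00234). Hspa8, the constitutive cytosolic chaperone, stood at 1545, 980.5 and 1598 CPM and 788, 667 and 904 CPM (log2 -0.81 ± 0.24, adjusted p = 0.0287) and did not pass when any library other than control library 2 was left out (0.0524 to 0.126). Of 15 targets of the oxidant-response factor NRF2 and metallothioneins, 3 rose and 0 fell, and with the replicate number as a block 5 rose. Osgin1, an oxidative stress gene that limits growth, stood at 233, 228 and 97.4 CPM and 1315, 1218 and 980.1 CPM, 6.57-fold higher (log2 2.72 ± 0.37, adjusted p = 5.87e-05). The control female was the lowest of the 6, and the groups did not overlap. Gstm1, a glutathione transferase, rose from 449.6, 537 and 747 CPM to 1246, 1605 and 1516 CPM (log2 1.35 ± 0.29, adjusted p = 0.00331). The third was its relative Gsta2 (log2 2.34 ± 0.54), whose reads may be shared with paralogs. Hmox1 and Nqo1, other known targets of the factor, did not pass (adjusted p = 0.618 and 0.0971).

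Growth and secretory genes followed. Igf1, the growth factor that the liver secretes under growth hormone, fell from 568, 633 and 412 CPM to 247, 208 and 165 CPM, 2.6-fold (log2 -1.38 ± 0.22, adjusted p = 0.000225), and Igfbp2, which binds it, rose from 400.2, 385 and 315 CPM to 777, 964 and 575 CPM (log2 1.07 ± 0.19, adjusted p = 0.000624). The groups did not overlap in either. Of the 14 genes of that axis 1 rose and 4 fell, but the number that fell was 1 or 2 without control library 1 or 2 or any MCD library. The major urinary proteins Mup7, Mup16 and Mup17, which are secreted pheromone carriers under growth hormone control, were among the 12 largest falls at CT16 under the naming rule given below. Mup7 stood at 12652, 6409.5 and 415 CPM in the controls and 410.3, 243 and 26.4 CPM on the MCD diet, with the females lowest in both groups. The family is near-identical in sequence, so its reads may be shared, and none of the 3 passed without the sex term (adjusted p of 0.151 to 0.211). Mup7 and Mup16 did not pass when any 1 of the 6 libraries was left out (0.0607 to 0.147 and 0.0713 to 0.149) or with a term for the kind of library (0.0535 and 0.0587), and Mup17 did not pass when any library other than control library 2 was left out (0.0524 to 0.101).

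Further genes were among the 12 largest changes in each direction under the naming rule given below. Gadd45b, a stress-induced regulator of MAP kinase signalling, rose from 0.214, 0.600 and 0.741 CPM to 9.11, 6.07 and 8.20 CPM, 16.2-fold (log2 4.02 ± 0.65, adjusted p = 0.000298). Sprr1a, a cornified envelope protein known also from injured neurons, had no count in the controls and 1.19, 0.985 and 4.10 CPM on the MCD diet, at least 37.2-fold higher when each control library is set at 3 counts. Tuba8, an alpha-tubulin, went from 0.622, 0.901 and 1.77 CPM to 7.04, 7.20 and 24.9 CPM (log2 3.47 ± 0.79, adjusted p = 0.00521), with the MCD female far above both males. Fabp5, a fatty acid carrier, fell from 119, 63.2 and 137 CPM to 3.20, 4.91 and 4.56 CPM, 24.8-fold (log2 -4.63 ± 0.54, adjusted p = 1.73e-05). Chrna4, a nicotinic acetylcholine receptor subunit, fell from 84.1, 51.8 and 54.5 CPM to 0.350, 0.312 and 0.679 CPM, 151-fold (log2 -7.24 ± 0.97, adjusted p = 5.87e-05). Ptk6, a non-receptor tyrosine kinase, fell from 8.72, 6.44 and 8.78 CPM to 0.573, 0.427 and 0.402 CPM (log2 -4.07 ± 0.67, adjusted p = 0.000325). The groups lay apart in all 6, and each of these calls held whichever library was left out, although Sprr1a did not pass in limma (0.249). The remaining genes of this rule that rose, Fignl1 and Cbr3, reached log2 changes of 3.73 ± 0.93 and 3.38 ± 0.93, and Cbr3 did not pass when any control library or MCD library 3 was left out (0.062 to 0.0669). The remaining genes that fell include Pnpla5, a paralog of Pnpla3, which went from 15.9, 9.43 and 5.85 CPM to 0, 0.0492 and 0.166 CPM, 158-fold lower (log2 -7.31 ± 1.18, adjusted p = 0.000598). Serpina4-ps1, which its symbol marks as a pseudogene, went from 436, 369 and 6.57 CPM to 4.25, 5.22 and 0.707 CPM, 50.8-fold lower (log2 -5.67 ± 1.11, adjusted p = 0.00174), and did not pass without the sex term (0.0533) or with the 6 CT16 libraries fitted alone and the replicate number as a block (0.0542). Scd4, whose reads may be shared with the other desaturase paralogs, stood at 8.37, 7.99 and 17.8 CPM and 0, 0 and 0.443 CPM, 78.6-fold lower (log2 -6.30 ± 1.85, adjusted p = 0.028), and did not pass when any library other than control library 2 was left out (0.0532 to 0.105).

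Mitochondrial transcripts changed unevenly along the genome. The libraries were selected for polyadenylated RNA, and the 22 mitochondrial tRNA genes are only 59 to 75 bases long, so counts over them may come from longer RNAs that span them, which was not tested. Mitochondrial tRNAs are cut out of long transcripts in which they lie between the coding genes. Of the 22, 6 were called higher and 2 lower, against 0 higher and 4 lower of the 13 coding genes and both ribosomal RNAs lower. The tRNA genes mt-Td, mt-Tg and mt-Tr were among the 12 largest rises under the naming rule given below, which is not a ranking of all genes. The remaining mitochondrial RNAs without a protein were chosen after their values were seen.

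mt-Tg, the glycine tRNA, stood at 1.98, 0.941 and 1.10 CPM in the controls and 114, 86.5 and 100.1 CPM on the MCD diet (log2 6.24 ± 1.28, adjusted p = 0.00254). mt-Tr, the arginine tRNA, stood at 1.01, 0.520 and 0.624 CPM and 30.1, 27.8 and 52.6 CPM (log2 5.73 ± 1.30, adjusted p = 0.00509), and mt-Td, the aspartate tRNA, at 0.0388, 0.220 and 0.202 CPM and 13.8, 12 and 18 CPM (log2 6.55 ± 1.43, adjusted p = 0.00385, but 0.0883 in limma). All 3 passed whichever library was left out. mt-Tg and mt-Tr flank the coding gene mt-Nd3, a subunit of complex I, which lay higher in each MCD library, at 431, 411 and 447 CPM and 819, 739 and 727 CPM, without passing (log2 0.83 ± 0.32, adjusted p = 0.094). The 3 MCD libraries at CT16 were the 3 highest of all 36 liver libraries for mt-Tg, mt-Tr, mt-Td and mt-Nd3. For mt-Tg they ranged from 86.5 to 114 CPM, against a median of 9.93 CPM and a highest value of 69.7 CPM in the other 15 MCD libraries and 0.369 to 3.27 CPM in the 18 control libraries. Of those 15, 9 lay above all controls. The log2 change of mt-Tg ran, in order from CT00 to CT20, 3.06, -0.25, 2.04, 4.79, 6.24 and 3.87, yet the test of CT16 against the other times did not pass (difference 3.54, adjusted p = 0.237).

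mt-Nd2, another complex I subunit, fell from 7171, 6823 and 6081 CPM to 2612, 2102 and 1420.3 CPM, 3.3-fold (log2 -1.72 ± 0.27, adjusted p = 0.000198), while its neighbour mt-Tw, the tryptophan tRNA, whose exon overlaps it on the same strand, rose from 7.81, 4.48 and 7.40 CPM to 45.2, 30.9 and 28 CPM (log2 2.37 ± 0.61, adjusted p = 0.0117). Both ribosomal RNAs fell, mt-Rnr1 with a log2 change of -1.31 ± 0.23 (adjusted p = 0.000595) and mt-Rnr2 with one of -1.40 ± 0.27 (0.0015). mt-Co1 fell by 0.52, mt-Cytb by 0.66 and mt-Nd5 by 0.90, and none of these 3 passed without control library 1 (adjusted p of 0.105, 0.0608 and 0.0513). mt-Co1 did not pass whichever of the 6 libraries was left out (0.052 to 0.105) or with library totals (log2 -0.24, adjusted p = 0.0934), and mt-Cytb did not pass without MCD library 3 (0.0721). The number of coding genes that fell was 1 without control library 1, mt-Nd2, and 2 without MCD library 3. The 3 MCD libraries and control libraries 2 and 3 are all of the low mt-Nd6 kind. In mt-Tg, mt-Tr, mt-Td, mt-Nd2 and mt-Nd3 the diets lay apart over all 6 libraries. They therefore lay apart among those 5 as well, which is no separate test of the kind of library.

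**Figure D3:**
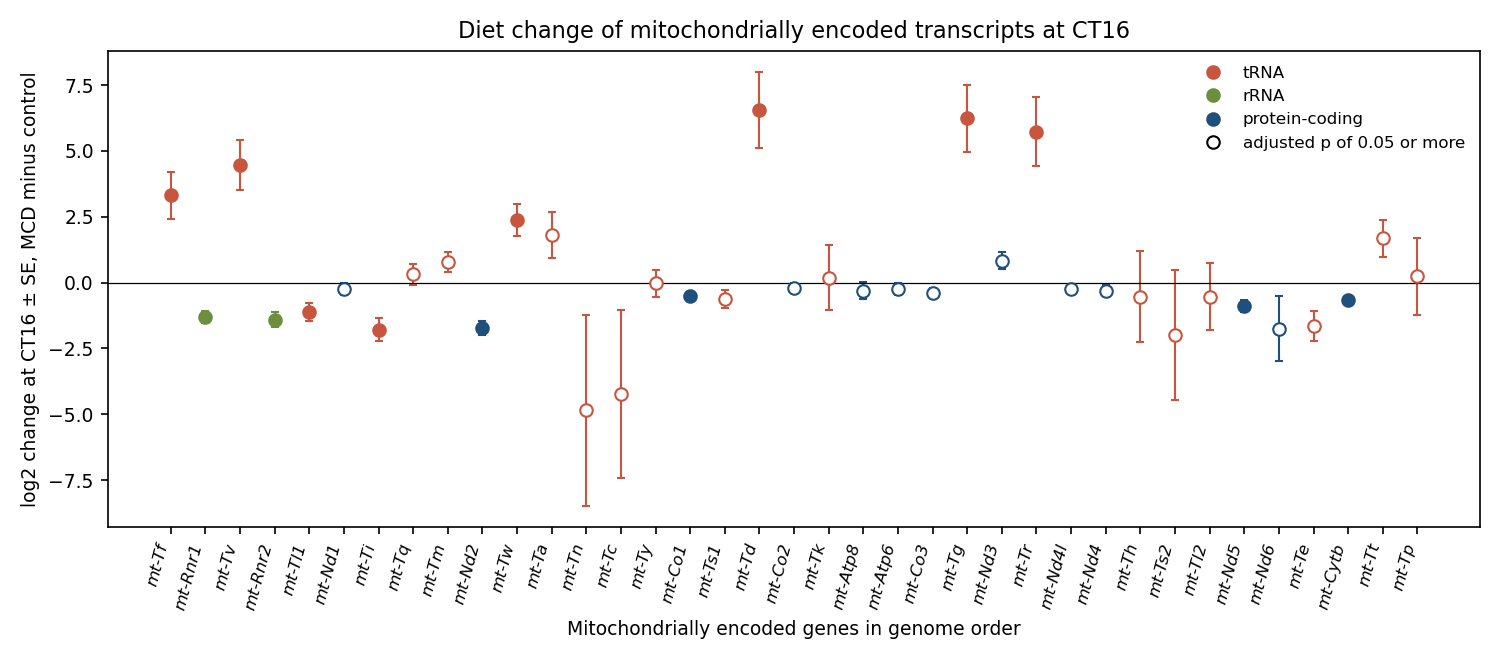
Log2 change on the MCD diet at CT16 (± SE) for the 37 mitochondrially encoded genes in genome order, with filled points for those past the test. Among the points past the test, mt-Td, mt-Tg and mt-Tr lie highest and mt-Ti and mt-Nd2 lowest.

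Markers of other cell types were read for how far the tissue's make-up moved with the diet. None of the 18 Kupffer cell and macrophage markers passed in edgeR or in limma, 2 rose in DESeq2 and 12 lay higher at an unadjusted p under 0.05 in edgeR. The MCD values lay wholly above the control values for 16 of the 18, against 20.1% of all genes, and their median was 0.64. Their summed level was 504 to 679.5 CPM in the controls and 848 to 889 CPM on the MCD diet. With the replicate number as a block 4 rose, and with the 6 CT16 libraries alone and that block 15 rose. Marco, a scavenger receptor, stood at 2.86, 2.54 and 3.77 CPM and 16.6, 14.5 and 10.1 CPM (log2 2.21 ± 0.83, adjusted p = 0.0803), and Trem2, a receptor of lipid-laden macrophages, at 0.719, 0.280 and 0.843 CPM and 2.58, 2.49 and 3.48 CPM (log2 2.20 ± 0.77, adjusted p = 0.0608).

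Stellate cell and fibrosis markers summed to 354 to 445 CPM in the controls and 463 to 516 CPM on the MCD diet. Of 16, Mmp13, a collagenase, was the 1 that rose, where 6.52% of all genes rose, at 0, 0 and 0.118 CPM and 0.765, 0.886 and 1.43 CPM. It did not pass without control library 1 or 2 or MCD library 2 or 3 (0.0574 to 0.159). Sinusoidal endothelial markers summed to 393 to 484 and 476 to 525 CPM, with 0 of 8 called by edgeR, DESeq2 or limma and 2 higher at an unadjusted p under 0.05. Cholangiocyte markers summed to 28.9 to 42.5 and 35.2 to 36.8 CPM. Of those 6, Sox9, a factor of bile duct cells and of reacting hepatocytes, rose from 5.50, 6.24 and 7.28 CPM to 12.9, 18.2 and 12.2 CPM (log2 1.16 ± 0.24, adjusted p = 0.00249), while Krt19 stood at 1.18, 1.20 and 1.03 CPM and 1.26, 1.15 and 1.04 CPM. Neutrophil and lymphocyte markers summed to no more than 8.43 CPM in any library, with Retnlg at 0 in 4 of the 6 and S100a8 at 0 in 3. Of 11, Cd4 was the 1 that fell (log2 -1.47 ± 0.47, adjusted p = 0.0382), 0 rose, and the median was -0.50. Cd4 did not pass when control library 1 or 2 or MCD library 1 or 2 was left out (0.12 to 0.152) or with library totals (0.0771). Red cell markers were lower, at 213 to 453 CPM in the controls and 109 to 174 CPM on the MCD diet, and 3 of 5 fell. None of the red cell calls held without control library 2, MCD library 2 or MCD library 3, and the globin copies may share reads. The part of any of these in the gene changes above was not tested.

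Of 23 acute phase genes 5 rose and 2 fell, and without control library 1 it was 3 and 1. Apcs, serum amyloid P, rose from 45.4, 45.2 and 74.5 CPM to 168, 157 and 162 CPM (log2 1.60 ± 0.35, adjusted p = 0.00413), and Crp fell from 303, 299 and 392 CPM to 220.3, 170.2 and 149.6 CPM (log2 -0.87 ± 0.19, adjusted p = 0.0042). Of 16 interferon and MHC class I genes 3 rose, 1 of which, H2-D1, a class I heavy chain, went from 460.1, 518 and 546 CPM to 799, 780.1 and 812 CPM (log2 0.65 ± 0.12, adjusted p = 0.000648), and the number that rose was 1 without control library 1 or 3 and 8 with the 6 CT16 libraries fitted alone with the sex term. Of 16 cell cycle genes 5 rose and 0 fell, 12 lay higher at an unadjusted p under 0.05, and in 12 the MCD values lay wholly above the control values, against 20.1% of all genes. The list had a median log2 change of 1.73, which stays the same if Cdkn3, with no count in the controls, is set at its bound of a 3.89-fold rise. Ccnd1, cyclin D1, stood at 22, 20.2 and 44.8 CPM and 72.6, 82.2 and 192 CPM (log2 1.95 ± 0.58, adjusted p = 0.0277). Fewer cell cycle calls remained when single libraries were left out: 0 without control library 1, control library 3 or MCD library 2, 1 without MCD library 3 and 2 without control library 2. With the 6 CT16 libraries fitted alone with the sex term, 10 rose. Of 19 genes of the urea cycle and amino acid catabolism 1 rose and 2 fell, and of 16 xenobiotic P450 genes 1 rose and 1 fell, where 6.52% of all genes rose and 5.99% fell. Of the 2 urea cycle falls, Otc did not pass without MCD library 3 (0.0514). Neither P450 call held without control library 1 or MCD library 2 or 3, and the 1 rise of the urea cycle list, Hal, held only without control library 3. Of 10 cold-inducible and splicing genes 2 fell, Rbm3 and Hnrnpdl, and neither passed with library totals (0.303 and 0.627), without control library 1 (0.0728 and 0.0652), without control library 2 (0.0923 and 0.0541) or without MCD library 3 (0.0801 and 0.123).

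The other times served to place CT16. Each time had its own 6 libraries, and the most genes were called at CT04 (3679, 18.2%) and the fewest at CT08 (263, 1.30%). At CT08, 1 of the 3 control libraries stood apart, with a TMM factor of 1.18 against 0.841 to 0.986 in the other control libraries. Its part in the CT08 values here and below was not tested. CT12 had 3081 (15.2%), CT00 had 2550 (12.6%) and CT20 had 2288 (11.3%). CT16 shared the most calls with CT20, the next time in the night. There, 1336 genes were called with the same sign and 0 with opposite signs, which is 52.8% of the CT16 calls and 58.4% of the CT20 calls. The calls shared with the same sign were 1138 with CT12 (44.9% and 36.9%), 1053 with CT00 (41.6% and 41.3%), 1031 with CT04 (40.7% and 28%) and 144 with CT08 (5.69% and 54.8%). Calls of opposite sign numbered 32 at CT04, 4 at CT00, 4 at CT08 and 3 at CT12. Over the genes called at CT16 the median size of the log2 change was 0.68 at CT16 itself, the time at which they were chosen, 0.52 at CT20, 0.44 at CT12 and CT00, 0.40 at CT04 and 0.22 at CT08. Of the 2532 genes, 1653 had the same sign at all 6 times, 101 were called in the same direction at all 5 others and 623 were called at no other time. That last number is no test of a difference between times.

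**Figure D4:**
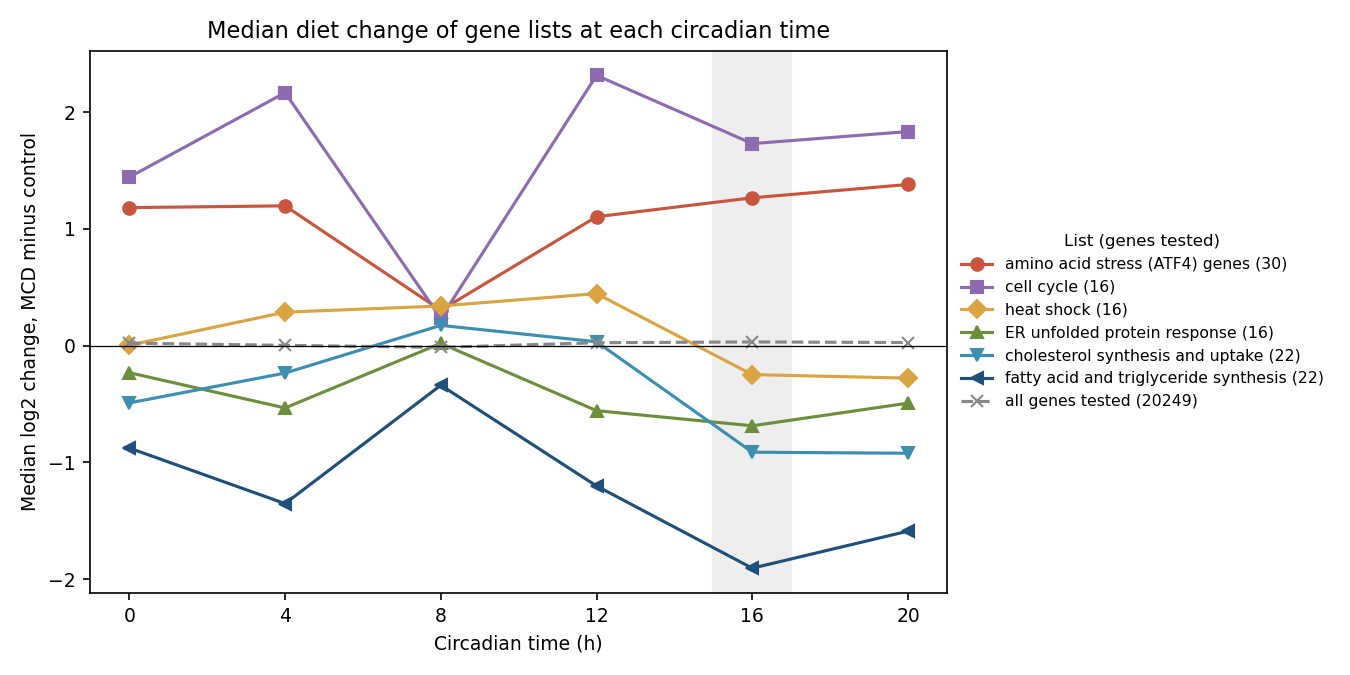
Median log2 change on the MCD diet at each of the 6 circadian times for 6 gene lists and for all genes tested. The fatty acid and cholesterol lists lie lowest at CT16 and CT20, and the amino acid stress list lies above 1 at each time but CT08. At CT08, 1 control library stood apart from the other controls in its TMM factor, and its part was not tested.

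The median log2 change of the amino acid stress list, in order from CT00 to CT20, was 1.18, 1.20, 0.30, 1.10, 1.27 and 1.38, lowest at CT08. The CT08 values of this and the following lists include the control library that stands apart, whose part in them was not tested. The median of the fatty acid list was lowest at CT16. Its medians in the same order were -0.88, -1.35, -0.34, -1.20, -1.91 and -1.59. CT16 had the lowest change of the 6 times for 9 of its 22 members, against 16.2% of all genes. The cholesterol list lay at -0.49, -0.23, 0.17, 0.03, -0.91 and -0.92 over the same times, and CT16 had the lowest change for 12 of its 22 members. These positions describe the lists, and no member of either passed edgeR's test of CT16 against the other times. DESeq2 called Gpam and Fads2 of the fatty acid list for this contrast (adjusted p = 0.0211 and 0.0151).

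In 15 of the 22 fatty acid genes (68.2%) the control mean was highest at CT16, against 16.2% of all genes, whereas the MCD mean was highest there in 3 (13.6%, against 20.6% of all genes). Fasn had control means of 2381, 2497, 2297, 2530, 6423 and 3502 CPM from CT00 to CT20, and MCD means of 1214, 282, 1300, 901, 1233 and 1011 CPM. Elovl6 had control means of 410.1, 456, 520, 666, 1731 and 840.5 CPM over the same times and MCD means of 181.5, 68.3, 182, 146, 166 and 154 CPM. In both genes the control mice reached their highest level at CT16 while the MCD means at CT16 stayed within the range of the other times. The cholesterol list differed in this, since the MCD mean was lowest at CT16 in 12 of its 22 members (54.5%, against 20% of all genes) and the control mean highest in 6. Heat shock genes peaked at CT16 in the controls in 13 of 16 (81.2%, against 16.2% of all genes) and on the MCD diet in 6 (37.5%, against 20.6%). Hspa8 had control means of 569, 587, 708, 966, 1375 and 717 CPM and MCD means of 669, 742, 917, 1233, 786 and 549 CPM, so that the MCD mean was highest at CT12.

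Few genes passed a direct test of whether the diet change at CT16 differed from that at other times. In edgeR's test of the CT16 change against the mean change at the 5 other times, 9 of 20249 genes passed (0.0444%), 5 (0.0247%) with a change that was higher at CT16 and 4 (0.0198%) with one that was lower, and 2228 had an unadjusted p under 0.05. None of the 445 tested members of the lists was among them, and 52 of the 445 had an unadjusted p under 0.05. Against the mean of CT12 and CT20 alone, 0 passed, with 970 at an unadjusted p under 0.05. DESeq2 called 357 genes for CT16 against the 5 other times, 157 higher and 200 lower, with all 9 among them, and 14 of the 445 list members. The number in edgeR also changed when single libraries were left out: 2 without control library 1, 4 without control library 2, 22 without control library 3, 2 without MCD library 1 or MCD library 2, and 5 without MCD library 3. Without 1 library labelled control CT08 that stands apart from its group it was 30, and with a term for the kind of library it was 20.

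Hnrnpll, an RNA-binding protein known for regulating alternative splicing in lymphocytes, passed under 15 alternative settings and did not pass against CT12 and CT20 alone. It stood at 29.2, 27.6 and 32.1 CPM in the controls and 16.7, 18.3 and 17.5 CPM on the MCD diet at CT16 (log2 -0.76 ± 0.11, adjusted p = 0.000147), and the groups did not overlap. The difference from the other times was -0.86 ± 0.12 (adjusted p = 0.00461). Its control means were steady, at 29.4, 30.0, 29.1, 30.0, 29.6 and 27.8 CPM from CT00 to CT20, and its MCD means were 33.8, 39.7, 41.3, 24.1, 17.5 and 22.4 CPM. The MCD level therefore lay above the control level at CT00, CT04 and CT08 and below it from CT12 to CT20, with CT16 the lowest.

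Caprin2, an RNA-binding protein that also acts in Wnt signalling, stood at 0.719, 0.961 and 0.944 CPM in the controls and 3.31, 3.17 and 4.17 CPM on the MCD diet (log2 2.02 ± 0.25, adjusted p = 2.25e-05). The difference from the other times was 1.67 ± 0.27 (adjusted p = 0.013, but 0.139 without control library 1 and 0.0534 in limma). Here the control mice varied with time, with means of 2.59, 4.57, 3.58, 1.97, 0.874 and 2.38 CPM from CT00 to CT20, lowest at CT16. The MCD means stayed between 3.44 and 3.91 CPM at all 6 times.

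Of the other genes, Fam102a fell at CT16 from 52.3, 50.4 and 56.2 CPM to 32.3, 29.8 and 43.1 CPM (log2 -0.61 ± 0.17, adjusted p = 0.0185), while its changes at the other times ran from -0.34 to 1.55, a difference of -1.08 ± 0.19 (adjusted p = 0.0279). Zc3h7b, a zinc finger protein that binds RNA, fell from 67.3, 69.9 and 58 CPM to 46.7, 43.9 and 49.6 CPM (log2 -0.47 ± 0.07), a difference of -0.45 ± 0.08 (adjusted p = 0.0327). Cnnm3, a magnesium transport protein, rose from 14.9, 19 and 17.7 CPM to 26.3, 21 and 23 CPM (log2 0.45 ± 0.13), a difference of 0.73 ± 0.14 (adjusted p = 0.0439). Smarcal1, an annealing helicase of stalled replication forks, rose from 12.6, 11.1 and 12.9 CPM to 16.3, 14.4 and 16.4 CPM (log2 0.36 ± 0.10), a difference of 0.56 ± 0.11 (adjusted p = 0.0439). Pik3r4, a subunit of the class III phosphatidylinositol 3-kinase of autophagy, stood at 20.0, 20.5 and 20.6 CPM and 23.7, 25.3 and 20.9 CPM and did not pass at CT16 itself (log2 0.19 ± 0.07, adjusted p = 0.073), with a difference of 0.41 ± 0.08 (adjusted p = 0.0439). Groups did not overlap in any of these 5, but their changes at CT16 were small, and all 5 lost the call without control library 1 (adjusted p of 0.139 to 0.284), control library 2 (0.079 to 0.121), MCD library 1 (0.0896 to 0.13) and MCD library 2 (0.0769 to 0.231), and with library totals in place of TMM (0.0898 to 0.16). In limma Cnnm3, Smarcal1, Zc3h7b and Pik3r4 did not pass (0.0531 to 0.057). With the replicate number as a block Cnnm3, Pik3r4 and Zc3h7b (each 0.063) and Smarcal1 (0.0507) lost it as well. Genes on the other strand overlap exons of Cnnm3 and Zc3h7b. The last 2 of the 9, 2510039O18Rik and Gm48583, are predicted gene models, which also lost the call with that block and are named after their values were seen, to complete the 9.

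**Figure D5:**
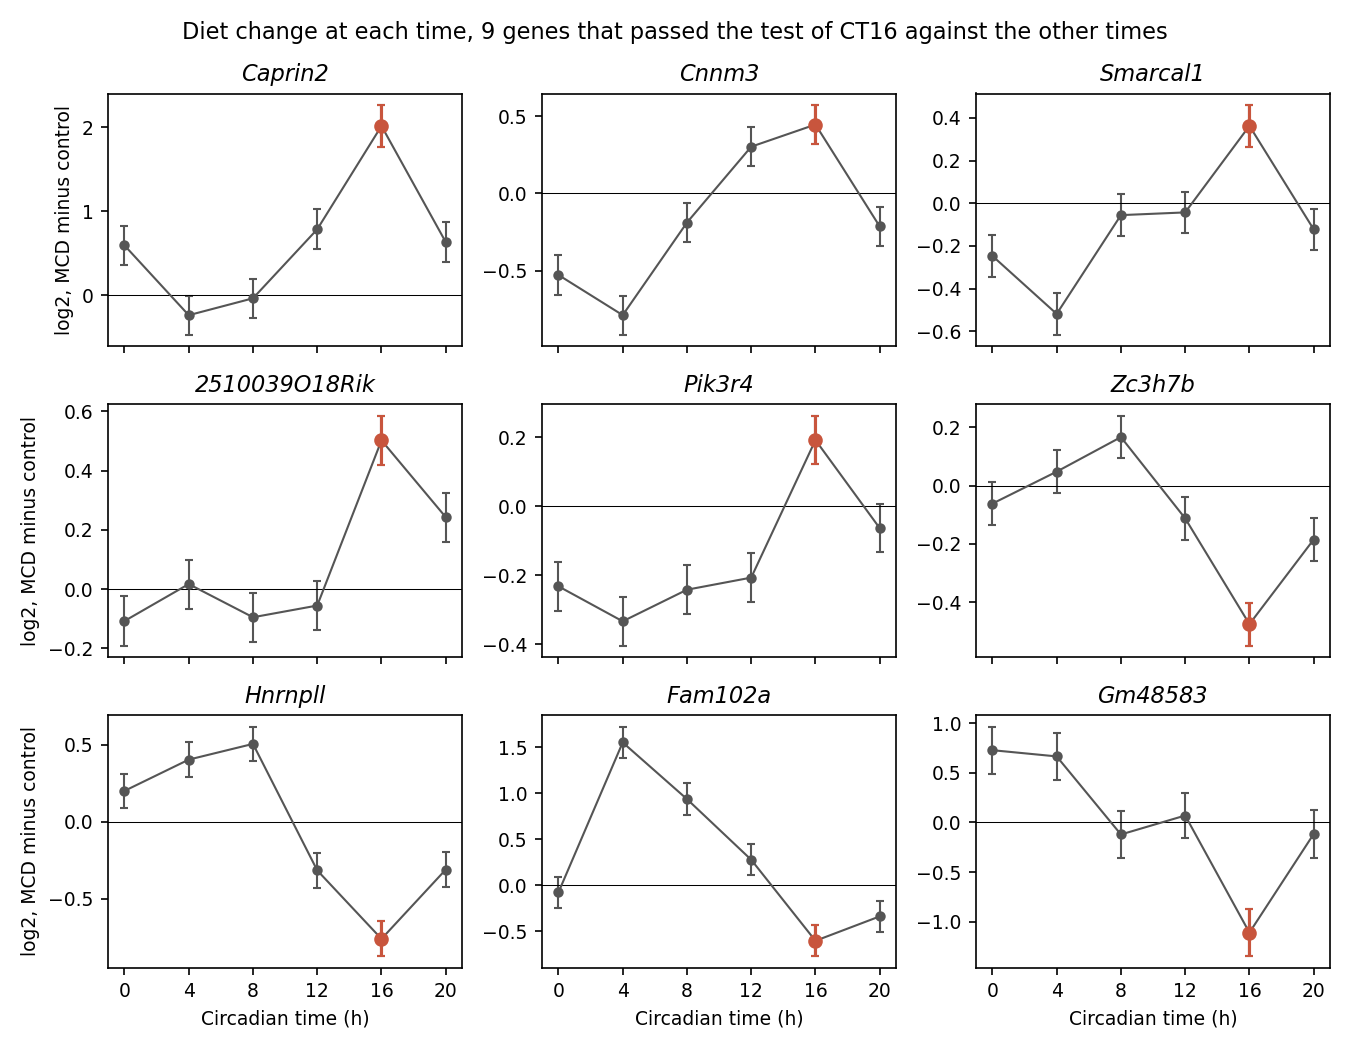
Log2 change on the MCD diet (± SE) at each of the 6 circadian times for the 9 genes that passed the test of CT16 against the other times, with CT16 in red. Hnrnpll turns from higher to lower between CT08 and CT12, and Caprin2 is highest at CT16.

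Among genes of the lists, the 14 that DESeq2 called for this contrast and edgeR did not included Cbs, with a difference of 0.63 ± 0.13 (adjusted p = 0.0647 in edgeR and 0.00287 in DESeq2). Gpam and Fads2, of fatty acid synthesis, had differences of -1.34 ± 0.39 (0.145 and 0.0211) and -1.06 ± 0.29 (0.118 and 0.0151). Plin2 had a difference of -1.07 ± 0.34 (0.195 and 0.0468): its change lay between 0.63 and 1.33 at the other 5 times and was -0.14 ± 0.31 at CT16. Rbm3, a cold-inducible RNA-binding protein, had a difference of -0.71 ± 0.18 (0.115 and 0.0164), and Hspa8 of -0.99 ± 0.27 (0.117 and 0.0152). Whether these genes respond differently at CT16 therefore depends on the tool.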

How the data were processed

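Liver RNA of 36 mice was sequenced as poly(A)-selected stranded libraries, per the labels' protocols. The authors deposited raw read counts per gene, made with Trimmomatic, HISAT2 and StringTie on GRCm39 per the submitters' processing notes, which also list DESeq2; their versions and the strand setting of the counting are not given. The counts were tested as deposited in edgeR 4.0.16 (R 4.3.3) with TMM scaling, a count minimum of 10 (filterByExpr) and a robust quasi-likelihood fit over all 36 libraries, with 12 diet-by-time groups sharing one spread and sex as a term. 1 contrast took MCD minus control at CT16, and the other took that difference minus the mean of the 5 other times. Adjusted p-values are Benjamini-Hochberg over 20249 genes, at a threshold of 0.05. CPM are TMM-scaled, and fold changes come from the fit. There were 3 libraries a group and 56383249 to 66457132 counts a library. Pairs of libraries of the same CT16 group differed by more than counting error, with a pooled chi-square per degree of freedom of 29.35 to 426.5. How spread and depth compare for single genes was not tested. Genes named are members of 29 lists, the 12 largest changes in each direction among called genes with a mean of at least 1 CPM, groups that do not overlap and a symbol that is not a predicted model, and such genes for the second contrast. The comparison, lists and tests were chosen with earlier results of these data known. Alternatives used DESeq2 1.42.0, limma 3.58.1 (voom), other scalings, filters and terms, and left out libraries. Same-numbered MCD and control libraries deviated together (r of 0.156, 0.315 and 0.508 across genes), but the numbers carry sex, and after removing sex r was -0.113, 0.0664 and -0.19; the numbers come from the labels. The fit with a replicate block used libraries whose column names give a number. The tests were tried on simulated counts with the same spread for all genes and no effect of sex or kind of library. That setting is simpler than these data and does not show how the tests perform on them. Promoters and motifs come from RefSeq sequences on GRCm38.p6 and exon overlaps from GENCODE M21, which holds 20129 of the tested identifiers. Overlaps are not flagged for each gene named. Exons of Shmt2, Psph, Hspd1, Tuba8, Lss, Hsp90b1, Ccnd1, Cideb, Mgll and Rbm3, among others, also overlap genes on the other strand. Values of 1 gene of the lists are not reported here.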

Additional observations from a re-analysis of the deposited data

Results flagged for a closer look

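For 9 genes the diet change at CT16 differed from the mean change at the 5 other times by edgeR's test of the difference itself. For Hnrnpll the difference was -0.86 on the log2 scale, for Gm48583 -1.35, for Fam102a -1.08 and for Zc3h7b -0.45. For Caprin2 it was 1.67, for Cnnm3 0.73, for Smarcal1 0.56, for 2510039O18Rik 0.50 and for Pik3r4 0.41. Gm48583 stood at 2.72, 2.02 and 1.63 CPM in the controls and 1.21, 0.919 and 0.817 CPM on the MCD diet at CT16, and 2510039O18Rik at 25.0, 28.2 and 28.3 CPM and 37.0, 39.7 and 38.8 CPM. At this contrast 0.0444% of all genes tested passed.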

How the results depend on the processing

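For the diet change at CT16, where 2532 genes were called, library totals in place of TMM gave 4162, and leaving out 1 library at a time gave 1140 to 2041. For CT16 against the other times, where 9 were called, library totals gave 5 (2 of them among the 9), RLE factors 4 (4), DESeq2 357 (9), limma 2 (2), no filter on low counts 5 (5), a term for the kind of library 20 (9), leaving out the library labelled control CT08 that stands apart 30 (9), and CT12 and CT20 as the reference 0, where 970 had an unadjusted p under 0.05. Leaving out 1 CT16 library at a time gave 2 to 22. The cause was not tested. With the replicate block in place of sex the counts were 2932 and 6, with 2475 and 3 genes shared with the fits without it. With the block Ddit4 and Hspa4l lost their calls (0.0643 and 0.051), and of the 9 genes Hnrnpll, Caprin2 and Fam102a were the 3 shared. Of 133 calls of list members and named genes, 127 held with the block, 109 with library totals, 108 in limma, 131 in DESeq2, 122 with the term for the kind of library and 71 to 105 when 1 library was left out. None changed sign. With 3 libraries a group, genes near 0 counts, such as Scd3 and Sprr1a, have folds that depend on the floor of 3 counts.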
